A study of Bombyx mori with 4 samples.

Results

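The silkworm gene set contains predicted genes whose sequences derive from transposons, and 193 of these gene models are described here. They are the models annotated as transposons that were expressed in BmN4 cells and whose RNA level was at most about doubled when Siwi was depleted. A model was taken when its RPKM (reads normalized to the length of the sequence and to the genome-mapped reads) exceeded 10 in cells lacking Siwi or in control cells and when its fold change (FC) on the log2 scale was 1 or lower. FC was the ratio of RPKM + 1, Siwi KD over Luc KD, so the contrast described here is also the one that chose the gene models, and its values are given as a description without a test. Of the 18596 sequences in the table, 2580 were gene models annotated as transposons. Of these, 239 (9.26%) were expressed, the 193 models described here made up 80.8% of the expressed ones, and the other 46 had a log2 FC above 1. The remaining 2341 models did not exceed 10 RPKM in either condition.

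Total RNA was sequenced from BmN4 cells, a germ cell line derived from silkworm ovary, after electroporation with siRNA against Siwi (Siwi KD) or, as control, against luciferase (Luc KD). Each condition comprised 2 libraries, whose reads the authors merged before the values were calculated. There is thus 1 value per gene model and condition, and no difference below has a replicate check. Both conditions came from the same cell line, cultured at 26 °C in medium with 10% fetal bovine serum, and no untransfected cells were included. The gene models are listed by identifier only. None (0) of the 16880 identifiers was found in the RefSeq gene table, so that the type of transposon in each model, the mRNA level of Siwi and the germ cell markers could not be looked up. Single models are therefore given by their length, and identifiers are given for only 4 of them.

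Transposons are mobile DNA elements, and in animal gonads they are held in check by piRNAs, small RNAs bound by PIWI proteins. Siwi is a PIWI protein of the silkworm, the counterpart of *Drosophila* Aubergine. Loaded with a piRNA, it cleaves complementary transposon transcripts in the cytoplasm, in the perinuclear granules called nuage. The cleaved RNA is passed on to Ago3, the partner of Siwi in the ping-pong cycle, which amplifies piRNAs. Silkworms are regarded as lacking a counterpart of *Drosophila* Piwi, the PIWI protein that silences transposons at the level of transcription. Automated gene prediction recognizes the open reading frames that transposons carry for their own movement, such as reverse transcriptase or transposase. A gene model annotated as a transposon can therefore be a complete element, a fragment or one of many similar copies. The 193 models received 15063968 reads in Siwi KD and 8953268 reads in Luc KD. These were 17.7% of the reads counted on all sequences in Siwi KD (95% Wilson interval 17.72% to 17.74%) and 11.6% in Luc KD (95% Wilson interval 11.56% to 11.59%). Every count was even, because both reads of a pair were counted, and intervals were calculated on pairs. They cover counting error only. No model had fewer than 832 reads in Siwi KD or 612 reads in Luc KD. Reads that match several sequences were placed in random and multiple counting modes, so that similar copies can share reads. RPKM is relative to all genome-mapped reads, so that fewer cells of a type and less RNA per cell cannot be told apart.

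Most of the 193 gene models were somewhat higher without Siwi. Median RPKM was 23.2 in Siwi KD (quartiles 13.1 and 48.4) and 19.0 in Luc KD (quartiles 11.2 and 38.7). A higher RPKM in Siwi KD was found for 165 models (85.5%) and a lower one for 28. The share of sequences that were higher in Siwi KD was 38.0% over all 3006 expressed sequences, 85.6% over the 389 expressed transposons and 30.9% over the 2617 expressed protein-coding genes. The share among the 193 models was thus about that of the expressed transposons, of which they are a part. The median log2 FC of the 193 models was 0.26 (quartiles 0.11 and 0.46), and the values lay between -0.60 and 0.98. Over all expressed sequences the median was -0.09. Protein-coding genes had a median of -0.13, and relative to it the median of the 193 models was 0.39. Since the upper end of the range was set at 1 by the choice of models, these numbers describe the models and are not evidence of their response.

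**Figure D1:**
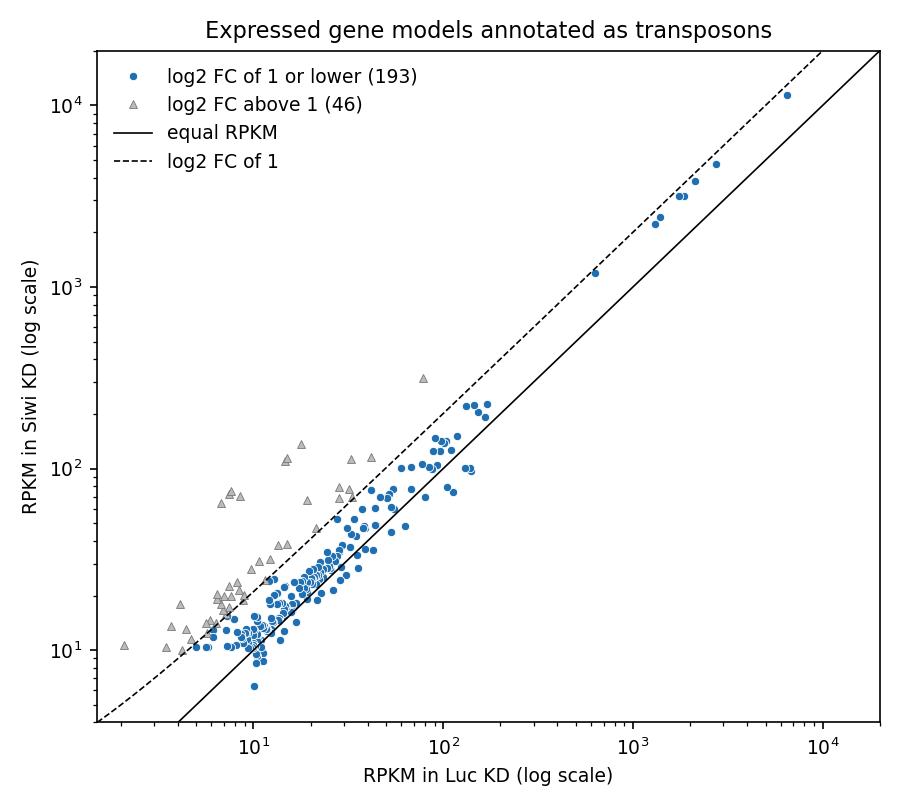
RPKM in Siwi KD (vertical axis) against RPKM in Luc KD (horizontal axis), both on log scales, for the 239 expressed gene models annotated as transposons. Circles are the 193 models with a log2 FC of 1 or lower and triangles the 46 models above it. Most circles lie between the line of equal RPKM and the line of a log2 FC of 1, and 8 circles lie apart from the rest, above 500 RPKM in Luc KD.

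The change was not small in all of them. A log2 FC above 0.5 was found for 42 models (21.8%) and one below -0.5 for 3 (1.55%), whereas 78 models lay within 0.25 of 0. These counts depended on the scale. Relative to the protein-coding median, 73 models were above 0.5 and 0 below -0.5. The numbers were 68 and 0 when scaled to reads on protein-coding genes, and 21 and 1 with 10 as pseudo-count. When scaled to reads counted on all sequences, they were 36 and 4. Over all expressed sequences, 8.55% were above 0.5 and 7.12% below -0.5, and over the expressed transposons 34.7% were above 0.5 and 1.80% below -0.5. Among protein-coding genes, 4.66% were above 0.5 and 7.91% below -0.5. Little change describes the 78 models by the way they were picked, and their number was not recalculated on the other scales. It does not describe the most abundant models, which follow next. Since the limit was applied after a pseudo-count of 1 had been added, 3 weakly expressed models with slightly more than a doubling of RPKM also fell under it.

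The most abundant gene models were all clearly higher in Siwi KD. Above 500 RPKM in Luc KD, there were 8 models of 1916 to 2906 nt, a group set apart after the values were seen, because the next model had only 169 RPKM. KWMTBOMO04923.mrna1 (2906 nt) had 11386 RPKM in Siwi KD and 6457 RPKM in Luc KD. This is a 1.76-fold difference (log2 FC 0.82) from 4293998 reads in Siwi KD and 2293382 reads in Luc KD. KWMTBOMO16745.mrna1 (2875 nt) had 4731 RPKM in Siwi KD and 2738 RPKM in Luc KD (log2 FC 0.79). They were the 2 most abundant of the 193 models in both conditions.

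The other 6 were less abundant but differed between the conditions by nearly the same factor. The model of 2855 nt had 3831 RPKM in Siwi KD and 2116 RPKM in Luc KD. The model of 2376 nt had 3166 RPKM in Siwi KD and 1863 RPKM in Luc KD, and that of 1916 nt had 3161 RPKM in Siwi KD and 1740 RPKM in Luc KD. In this order, the fold differences of these models were 1.81, 1.70 and 1.82. For the model of 2372 nt, 2427 RPKM were found in Siwi KD and 1386 RPKM in Luc KD. The more abundant of the 2 models of 2059 nt had 2233 RPKM in Siwi KD and 1299 RPKM in Luc KD, and the model of 2100 nt had 1196 RPKM in Siwi KD and 632 RPKM in Luc KD. Over all 8 models, the log2 FC lay between 0.76 and 0.92, a 1.70- to 1.89-fold difference. Among the other 185 models, whose log2 FC ranged from -0.60 to 0.98, 7 were in this narrow range. Whether the 8 models are copies of 1 element, whose reads could then have been shared among them, was not tested, because the sequences of the models were not used here.

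These 8 models carried most of the RNA and most of the difference. Over the 193 models, summed RPKM was 39262 in Siwi KD and 24142 in Luc KD, a ratio of 1.63. The 8 models held 81.8% of this sum in Siwi KD and 75.5% in Luc KD, and they made up 91.9% of the difference of 15120 RPKM. The single model of 2906 nt made up 4929 RPKM of it. Without the 8 models, the sums were 7132 RPKM in Siwi KD and 5911 RPKM in Luc KD, a ratio of 1.21, and the median log2 FC was 0.25.

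As a group, the 193 models held a large part of the transposon RNA. They contributed 45.8% of the summed RPKM of all expressed transposons in Siwi KD and 36.8% in Luc KD. Without the most abundant curated transposon, of 9536 nt, these shares were 64.2% in Siwi KD and 62.9% in Luc KD. Of the net difference of 20062 RPKM between Siwi KD and Luc KD over the expressed transposons, 75.4% came from the 193 models and 69.3% from the 8 most abundant ones. This net includes the curated transposon of 9536 nt, which was lower in Siwi KD (24497 RPKM) than in Luc KD (27227 RPKM). Its lower level in Siwi KD raises both percentages. By reads, the share of the 193 models in the expressed transposons was smaller, at 27.8% in Siwi KD (95% Wilson interval 27.80% to 27.83%) and 19.3% in Luc KD (95% Wilson interval 19.32% to 19.35%). For comparison, the 46 gene models with a log2 FC above 1 held 2182 RPKM in Siwi KD and 612 RPKM in Luc KD. The 193 models therefore accounted for 94.7% of the summed RPKM of expressed transposon gene models in Siwi KD and 97.5% in Luc KD.

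**Figure D2:**
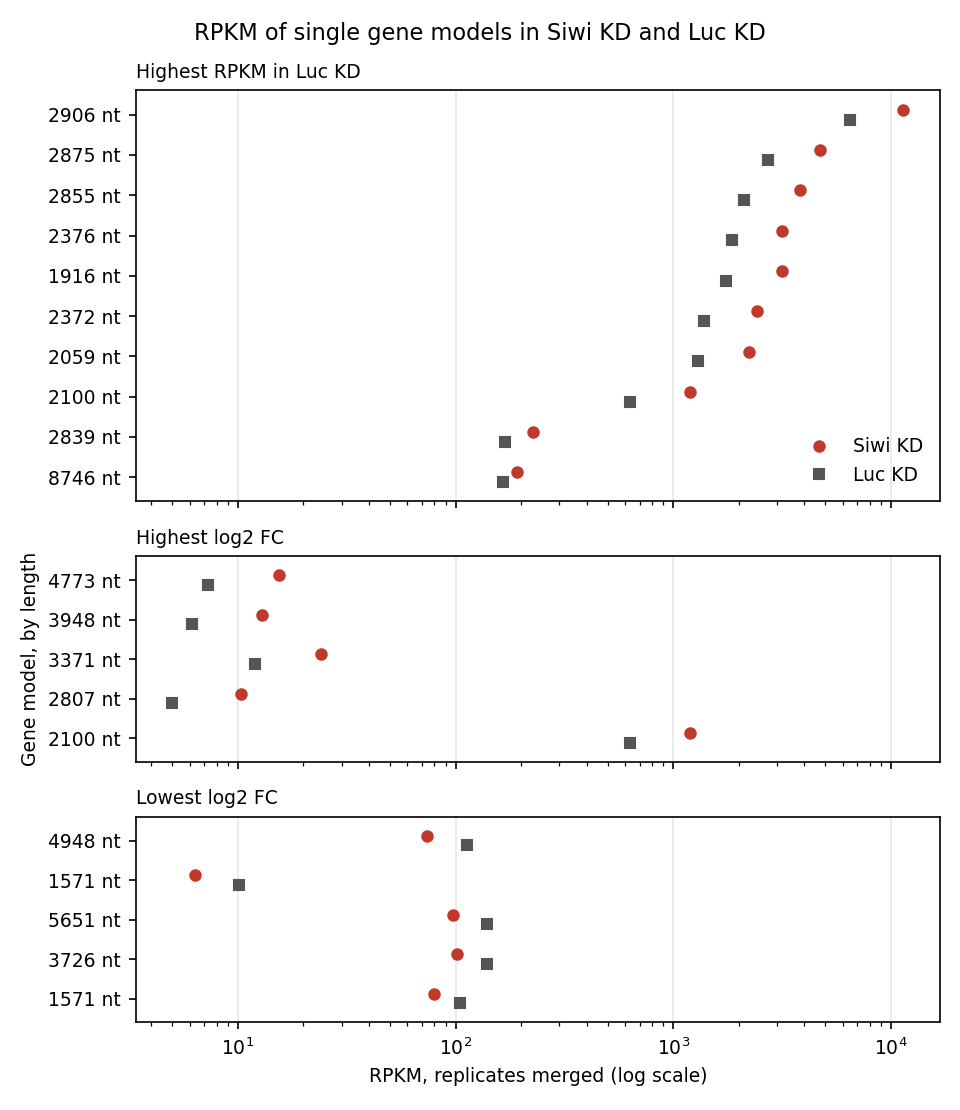
RPKM (log scale, replicates merged) of single gene models, named by length, in Siwi KD (circles) and Luc KD (squares). The top panel shows the 10 models with the highest RPKM in Luc KD, where Siwi KD is higher in each, the middle panel the 5 models with the highest log2 FC (0.92 to 0.98) and the bottom panel the 5 with the lowest (-0.60 to -0.40).

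Below these 8, the change showed no steady trend with level. Between 100 and 500 RPKM in Luc KD, 14 models had a median log2 FC of 0.28, and 9 of them were higher in Siwi KD. Of these, the model of 2839 nt had the highest level in Luc KD, with 226 RPKM in Siwi KD and 169 RPKM in Luc KD. The next in Luc KD was one of 8746 nt, with 191 RPKM in Siwi KD and 165 RPKM in Luc KD. The median log2 FC was 0.37 for the 19 models between 50 and 100 RPKM in Luc KD, 0.25 for the 51 models between 20 and 50 RPKM and 0.19 for the 70 models between 10 and 20 RPKM. A further 31 models were at or under 10 RPKM in Luc KD. These had to be higher in Siwi KD to be chosen at all, and their median of 0.40 follows partly from that. Likewise, the 6 models at or under 10 RPKM in Siwi KD had to be lower there. The 156 models above 10 RPKM in both conditions had a median log2 FC of 0.25, and 134 of them were higher in Siwi KD.

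A log2 FC above 0.75 was reached by 19 models, the 8 abundant ones included. The 4 models nearest to the limit had at most 24.0 RPKM in Siwi KD and 12.04 RPKM in Luc KD. Next was the abundant model of 2100 nt. The model of 4773 nt had 15.4 RPKM in Siwi KD and 7.29 RPKM in Luc KD (log2 FC 0.98). The model of 3948 nt had 12.9 RPKM in Siwi KD and 6.15 RPKM in Luc KD (log2 FC 0.96), and that of 3371 nt had 24.0 RPKM in Siwi KD and 12.04 RPKM in Luc KD (log2 FC 0.94). The fourth, of 2807 nt, had 10.4 RPKM in Siwi KD and 5.00 RPKM in Luc KD (log2 FC 0.92). Models just beyond the limit had similar values. The nearest of these, of 3756, 3655 and 3951 nt, had 24.3, 18.9 and 12.5 RPKM in Siwi KD and 11.5, 8.80 and 5.67 RPKM in Luc KD, with log2 FCs of 1.01, 1.02 and 1.02. Another model of 4773 nt was also beyond the limit, with 14.1 RPKM in Siwi KD, 6.37 RPKM in Luc KD and a log2 FC of 1.04. The limit of 1 therefore did not fall in a gap of the distribution.

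At the limit of expression, the model of 5316 nt was just inside, with 10.2 RPKM in Siwi KD and 9.91 RPKM in Luc KD, as was that of 2884 nt, with 10.2 RPKM in Siwi KD and 9.63 RPKM in Luc KD. The models just outside, of 1230, 1214 and 1058 nt, reached 9.91, 9.88 and 9.80 RPKM in Siwi KD and had 6.81, 9.49 and 6.12 RPKM in Luc KD.

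**Figure D3:**
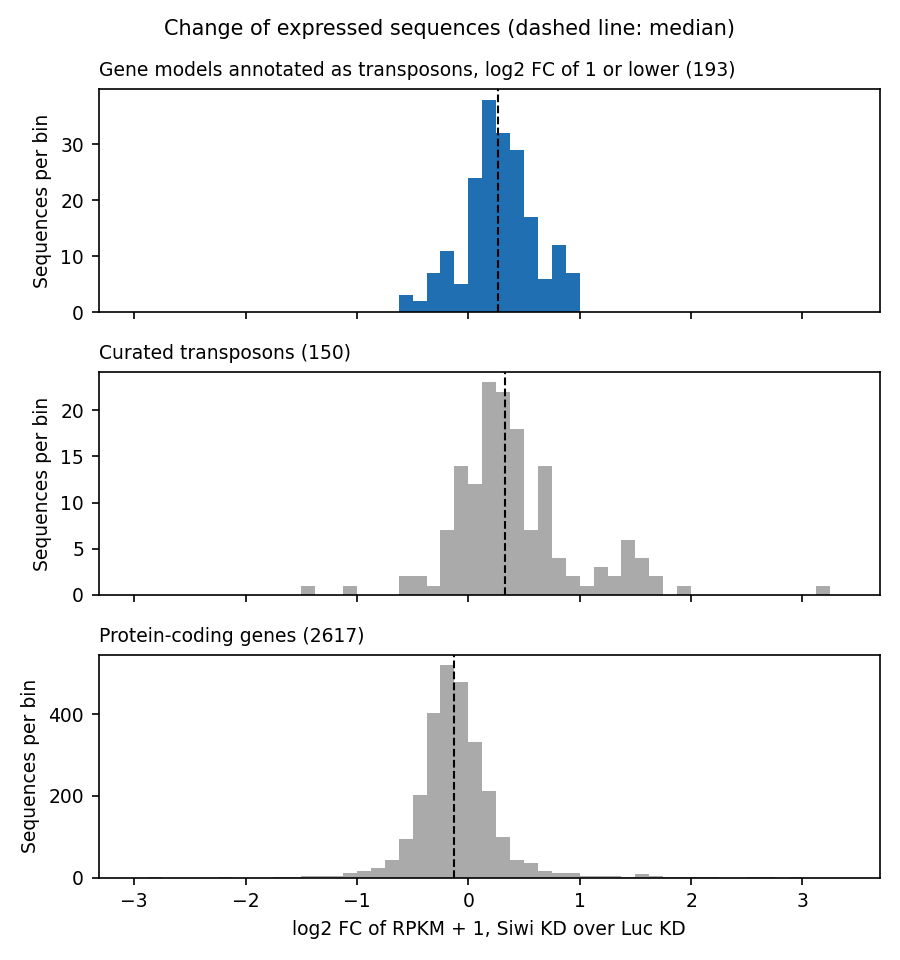
Number of expressed sequences per bin of log2 FC (RPKM + 1, Siwi KD over Luc KD), with the median as a dashed line. The 193 gene models (top) have a median of 0.26 and end at 1 by choice, the 150 curated transposons (middle) have a median of 0.33 with no such limit, and the 2617 protein-coding genes (bottom) have a median of -0.13.

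Lower levels in Siwi KD were found for 28 gene models, which together had 990 RPKM in Siwi KD and 1254 RPKM in Luc KD. Their median was 25.1 RPKM in Siwi KD and 28.7 RPKM in Luc KD, and they had to exceed 10 RPKM in Luc KD to be chosen. They included weakly expressed models, of which 6 were at or under 10 RPKM in Siwi KD. The lowest log2 FC was that of KWMTBOMO12943.mrna1 (4948 nt), with 73.9 RPKM in Siwi KD and 113 RPKM in Luc KD. This is a log2 FC of -0.60, from 47470 reads in Siwi KD and 68300 reads in Luc KD, and the counting interval of the ratio without pseudo-count was -0.64 to -0.59. KWMTBOMO08577.mrna1 (1571 nt) had 6.34 RPKM in Siwi KD and 10.1 RPKM in Luc KD (log2 FC -0.59), and its interval was wider, -0.81 to -0.52, because it rested on 1292 reads in Siwi KD and 1934 reads in Luc KD. The model of 5651 nt had 96.9 RPKM in Siwi KD and 139 RPKM in Luc KD (log2 FC -0.52), and the model of 3726 nt had 101 RPKM in Siwi KD and 139 RPKM in Luc KD (log2 FC -0.46). Another model of 1571 nt was more abundant and had 79.6 RPKM in Siwi KD and 105 RPKM in Luc KD (log2 FC -0.40). Thus, 5 of the 14 models between 100 and 500 RPKM in Luc KD were lower in Siwi KD, namely those of 4948, 5651, 3726, 763 and 1571 nt. Since protein-coding genes had a median of -0.13, a small negative value is not a decrease relative to them. Relative to this median, 23 of the 28 models were still lower.

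The 193 gene models were long. Their median length was 3216 nt (quartiles 2105 and 5297 nt), and they ranged from 497 to 16798 nt. The median was 2958.5 nt for the 46 models with a log2 FC above 1, of which none was longer than 6471 nt. It was 1298 nt for the curated transposons at or under this limit and 1279 nt for the protein-coding genes. These differences in length were not tested, because sequences are not replicates. Of the 193 models, 5 were up to 1000 nt long, 36 from there up to 2000 nt, 46 up to 3000 nt, 50 up to 5000 nt, 47 up to 8000 nt and 9 longer. The median log2 FC in these classes was 0.16, 0.25, 0.32, 0.25, 0.25 and 0.41, with increasing length. Across the 193 models, length and log2 FC had a Spearman coefficient of 0.02 and a Pearson coefficient of 0.06. All models share the same merged libraries, and the coefficients, which are near 0, are descriptions. 

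**Figure D4:**
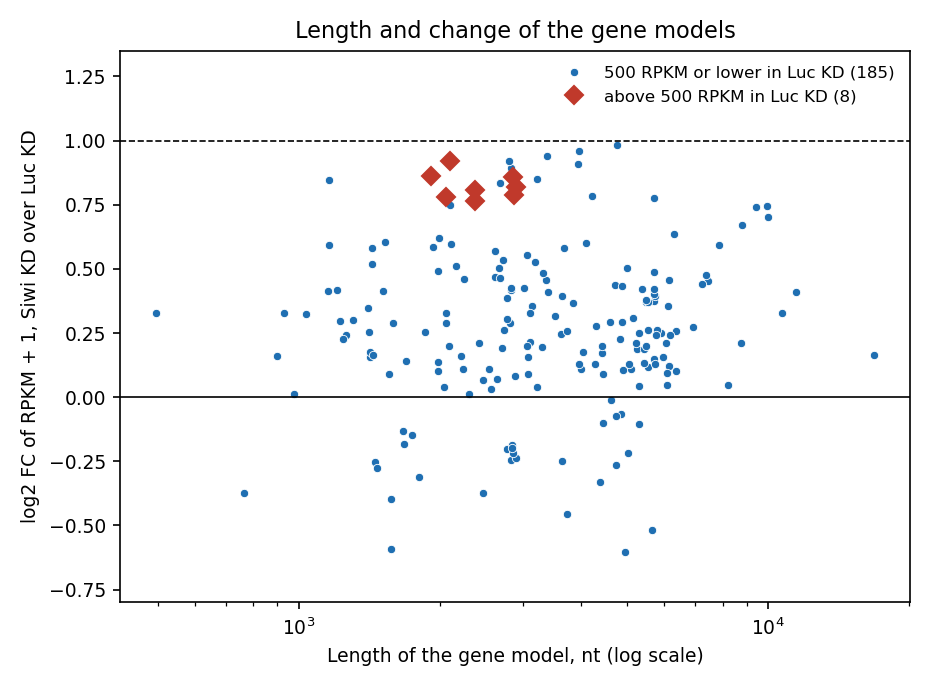
Length of the 193 gene models (horizontal axis, nt, log scale) against their log2 FC of RPKM + 1, Siwi KD over Luc KD (vertical axis). Diamonds are the 8 models above 500 RPKM in Luc KD, all between 1916 and 2906 nt and between 0.76 and 0.92, and the circles of the other 185 models spread from -0.60 to 0.98 with no slope along the length axis.

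Models of similar length differed widely in their change. From 2776 to 2906 nt there were 17 models, a window chosen after the values were seen. The 3 most abundant of all 193 were among them, with log2 FCs of 0.79 to 0.86. Next to these, 6 models of 2780 to 2898 nt were lower in Siwi KD, with log2 FCs of only -0.24 to -0.18. The most abundant of the 6, of 2780 nt, had 69.6 RPKM in Siwi KD and 80.2 RPKM in Luc KD, and the weakest, of 2853 nt, had 9.68 RPKM in Siwi KD and 11.2 RPKM in Luc KD. Although their levels spanned a wide range, their changes were nearly equal, in part because only models lower in Siwi KD were taken. With the protein-coding median subtracted, they lay between -0.11 and -0.05. The other 8 models in the window were higher in Siwi KD, with log2 FCs of 0.08 to 0.92, and those of 2838 and 2839 nt had 205 and 226 RPKM in Siwi KD and 153 and 169 RPKM in Luc KD.

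Among the longest gene models, 9 exceeded 8000 nt, all of them higher in Siwi KD. Of these, 4 models of 8817 to 9987 nt had log2 FCs of 0.67 to 0.75. The model of 9438 nt had 222 RPKM in Siwi KD and 132 RPKM in Luc KD, that of 9987 nt had 147 RPKM in Siwi KD and 90.2 RPKM in Luc KD, and that of 9940 nt had 101 RPKM in Siwi KD and 59.6 RPKM in Luc KD. The fourth, of 8817 nt, had 60.3 RPKM in Siwi KD and 37.5 RPKM in Luc KD. The other 5 of the 9 had log2 FCs of 0.05 to 0.41. The longest of all 193 models, of 16798 nt, was at 14.3 RPKM in Siwi KD and 12.7 RPKM in Luc KD (log2 FC 0.16). Between 5705 and 5794 nt there were 10 models, all higher in Siwi KD and with at most 28.7 RPKM in Siwi KD and 25.4 RPKM in Luc KD. Their log2 FCs were 0.13 to 0.78. These length groups, too, were noticed in the data.

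The curated transposons chosen by the same limits are set beside the 193 gene models here. Both groups end at a log2 FC of 1 by choice. These curated transposons are a separate list of silkworm elements that was combined with the gene models. Since a gene model was also annotated as a transposon when it matched a curated one closely, reads may be shared between both groups. The median log2 FC was 0.26 for the 193 models (quartiles 0.11 and 0.46) and 0.27 for the 130 curated transposons at or under 1 (quartiles 0.07 and 0.47). The lowest log2 FC was -0.60 for the 193 models and -1.48 for the 130. Against 85.5% of the 193 models, 102 (78.5%) of the 130 were higher in Siwi KD and 28 lower. Their summed RPKM, however, was 40025 in Siwi KD and 39409 in Luc KD, a ratio of 1.02, and a single curated transposon of 9536 nt held 24497 RPKM of it in Siwi KD and 27227 RPKM in Luc KD. The sums of both groups thus rested on a few abundant sequences, in which the gene models were higher and this curated transposon lower in Siwi KD. The difference between the groups was not tested.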

How the data were processed

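Total RNA of BmN4 cells was sequenced in 2 libraries each for Siwi KD and Luc KD, with 81135072 and 77184922 reads for Siwi KD and 77614516 and 68702400 reads for Luc KD. The authors depleted rRNA with a human, mouse and rat kit, trimmed the reads (Trim Galore 0.6.6), used STAR for mapping, first against the genome and afterwards against 18596 gene models and curated transposons, and merged the replicates. The deposited counts are sense reads per sequence without normalization. The deposited RPKM values are the authors' normalization of these counts to length and to genome-mapped reads, 129779634 in Siwi KD and 122229138 in Luc KD as recalculated from the table. No coordinates or sequences were used here. The reads counted on the sequences were 84961588 in Siwi KD and 77350240 in Luc KD, of which 35.7% and 41.0% fell on the curated transposon of 9536 nt.

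The log2 FC was log2 of the ratio of RPKM + 1. Counting intervals of ratios were exact (Clopper-Pearson, 95%) on read pairs. Their width on either side was at most 0.22 on the log2 scale, with a median of 0.06. The authors merged the replicates because they correlated highly, and the deposited table holds only the merged values. No test between conditions, fit across libraries or spread between replicates was therefore calculated here, and values outside this table were not used. The models and lists were chosen with earlier results of these data known. Values are given for the 10 models most abundant in Luc KD, the 5 highest and 5 lowest log2 FCs, and the 3 models nearest to each limit on either side. Models in length windows were chosen after their values were seen. Identifiers are given for the 2 models most abundant in Luc KD and the 2 lowest in log2 FC. Alternatives covered thresholds, pseudo-counts, scaling and the abundant sequences included. Calculations used scipy 1.17.1, pandas 2.3.3 and numpy 2.4.6 under Python 3.11.15, figures were drawn in matplotlib 3.10.9, and the calculations were tested on simulated counts.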

Additional observations from a re-analysis of the deposited data

How the results depend on the processing

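No paired analysis was possible because the replicates were merged in the deposited table, and for the same reason no replicate could be left out. Over 43 recalculated values, 21 stayed within the counting error or, for counts of models, within 1.5 times, 22 moved further and 0 changed direction. For medians, the error used was the median half-width of the intervals of single models, 0.06. Counts and shares could not change direction by construction, so that the 0 concerns only the medians and the ratios of summed RPKM. With thresholds of 5 and 20 RPKM in place of 10, 338 and 110 gene models were chosen. The other limits, pseudo-counts and scalings that were run gave 151 to 224. The median log2 FC of 0.26 was 0.19 with a pseudo-count of 10, 0.39 relative to the protein-coding median and 0.37 when scaled to reads on protein-coding genes. Under these 3 settings, 21, 73 and 68 models were above a log2 FC of 0.5, against 42, and 1, 0 and 0 were below -0.5, against 3. The ratio of summed RPKM of 1.63 was 1.58 without the most abundant model and 1.20 without the top 10, and it was 1.21 without the 8 most abundant, an alternative chosen after seeing the data. It was 1.57 when scaled to reads on the sequences, 1.76 when scaled to reads on protein-coding genes, 1.78 relative to the protein-coding median and 1.58 by reads. The share of the models in transposon RPKM, 45.8% in Siwi KD and 36.8% in Luc KD, was 27.8% and 19.3% by reads and 64.2% and 62.9% without the curated transposon of 9536 nt. Of the 28 models lower in Siwi KD, 24 remained so when scaled to reads on protein-coding genes. Scaling to reads on the sequences went the other way, with 35 models lower, the 28 included. It left 36 models above 0.5 and 4 below -0.5. Counting error was small at this depth, whereas the spread between replicates is unknown.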

Other observations

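Gene models annotated as transposons that did not exceed 10 RPKM also tended to be higher in Siwi KD. Of these 2341 models, 1744 had 100 or more reads, both conditions added, of which 1396 (80.0%) had a higher RPKM in Siwi KD. Their median was 1.03 RPKM in Siwi KD and 0.80 RPKM in Luc KD, and their median log2 FC was 0.11, a value that the pseudo-count of 1 makes small at such levels. Over all 18596 sequences, with no minimum of reads, 46.4% were higher in Siwi KD, but 2805 of these had no read in either condition. Over all 2580 gene models annotated as transposons, also with no minimum of reads, the share was 76.0%. The share among weakly expressed sequences other than transposons was not calculated. No read was counted on 76 of the 2341 in either condition. Together, the 2341 models held 3187 RPKM in Siwi KD and 2657 RPKM in Luc KD, in each condition less than the single model of 2906 nt.

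Gene models of equal length were at times close in level as well. Among the 193 models, 6 lengths occurred more than once, in 13 models. The 3 models of 5720 nt had 12.4, 11.8 and 10.5 RPKM in Siwi KD and 9.11, 8.55 and 7.22 RPKM in Luc KD, with log2 FCs of 0.40 to 0.49. The 2 models of 3115 nt had 29.0 and 31.2 RPKM in Siwi KD and 24.9 and 24.7 RPKM in Luc KD, and the 2 of 2615 nt had 72.4 and 69.7 RPKM in Siwi KD and 52.0 and 46.6 RPKM in Luc KD. In contrast, the 2 models of 2059 nt had 2233 and 42.5 RPKM in Siwi KD and 1299 and 34.7 RPKM in Luc KD. The 2 models of 1571 nt were also far apart, with 79.6 and 6.34 RPKM in Siwi KD and 105 and 10.1 RPKM in Luc KD. So were the 2 of 2677 nt, with 60.9 and 14.9 RPKM in Siwi KD and 43.8 and 7.91 RPKM in Luc KD. Whether models of equal length have the same sequence was not tested.

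Neighbouring numbers in the identifiers occurred in 7 pairs of the 193 models. In 5 of these pairs the log2 FCs differed by at most 0.1, and in all 7 pairs both models were on the same side of 0. Since 85.5% of the 193 models were higher in Siwi KD, models paired at random would often share a side too. How often other pairs lie within 0.1 was not calculated. Neighbours with a log2 FC above 1 were left out by the choice of models, which removes pairs that differ more. The model of 579 nt, at 1.99, has a number next to that of 2838 nt, at 0.42. One of 1408 nt, at 1.45, lies between those of 4433 and 2855 nt, at 0.17 and 0.86. Another of 6471 nt, at 1.05, is next to that of 1991 nt, at 0.62. The pair of 3948 and 2807 nt was at 0.96 and 0.92, and that of 497 and 1038 nt at 0.33 and 0.32. In 2 pairs both models were lower in Siwi KD, those of 1801 and 763 nt at -0.31 and -0.37 and those of 4948 and 4379 nt at -0.60 and -0.33. Of the 7 pairs, that of 3221 and 6910 nt differed most, at 0.85 and 0.27. These pairs were noticed in the data, and the positions of the models were not used here.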
